A study of Mus musculus with 20 samples.

Results

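The photoreceptor ribbon synapse genes described here were 10 genes picked by symbol: Ctbp2, Bsn, Pclo, Rims2, Cacna1f, Cacnb2, Cacna2d4, Cabp4, Unc119 and Slc17a7. All 10 were listed in every library, among 19368 genes in the oxygen-induced retinopathy (OIR) tables, 19102 in the postnatal day (P) 30 tables and 18754 in both. The symbols name proteins of the ribbon, the active zone, its calcium channel and the vesicles, and for Unc119 a chaperone. Whole retina was read, so the values are not those of photoreceptors alone. The study profiled whole mouse retina by bulk RNA sequencing in 20 libraries, 5 in each of 4 groups. Wild-type (WT) OIR and Atf6 knockout (Atf6-/-) OIR pups of both sexes, with their nursing mothers, breathed 75% oxygen from P7 to P12, then room air, and gave retinas at P17. PBS and Ceapin-A7 retinas came from wild-type mice at P30 that had received 1 µL into the vitreous of both eyes, without or with 10 µM Ceapin-A7, an inhibitor of ATF6 signalling, and were collected 24 h later. Ceapin-A7 and its control both carried vehicle in saline, which GEO's labels call 0.05-0.1% dimethyl sulfide and the methods give as DMSO, 0.01% with Ceapin-A7 and 0.05% in the control. By the methods the vehicle dose thus differs with the compound, and their effects cannot be told apart. The Atf6-/- allele, a stop codon placed early in the coding sequence (exon IV), is a germline allele, present in all cell types. The paper's methods give removal of cornea and lens for fixed eyecups, and for sequencing only the collection of whole retinas. The age, the oxygen and the injection all differ between the OIR and the P30 libraries.

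Photoreceptors release glutamate continuously in darkness, from terminals whose release sites are marked by an electron-dense plate, the synaptic ribbon. The ribbon is built from RIBEYE, a protein made from the Ctbp2 gene, and is held at the membrane by the scaffold proteins bassoon and piccolo beside L-type calcium channels of the Cav1.4 kind. Voltage sets the opening of these channels, calcium triggers fusion of vesicles filled with glutamate, and bipolar cells read the signal. Mutations of CACNA1F, CACNA2D4 and CABP4 are known causes of inherited disorders of transmission from photoreceptors in people.

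Ctbp2 makes 2 proteins from separate starts, and the sequence before the start of the RIBEYE-type transcript is shown because the deposited value of the gene joins both. In the GENCODE M21 annotation, a coding Ctbp2 transcript began within 10 bases of a RefSeq start and had a first coding exon of 1687 bases, 9 coding exons and 2964 coding bases. The 250 bases before that start, on the minus strand of chr7:133015248-133015497 in GRCm38.p6, an older build than the GRCm39 used for the files, were taken from RefSeq. Capitals mark the letters GGATTA, the reverse complement of TAATCC, which is the core read by photoreceptor homeobox factors such as CRX.
Ctbp2, RIBEYE-type start: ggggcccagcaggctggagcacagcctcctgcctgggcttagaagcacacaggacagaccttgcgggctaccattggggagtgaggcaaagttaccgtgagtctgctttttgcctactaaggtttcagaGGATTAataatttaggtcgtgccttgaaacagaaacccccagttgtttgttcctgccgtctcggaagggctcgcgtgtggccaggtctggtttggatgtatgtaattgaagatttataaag
The letters began 121 bases before the start. TAATCC on either strand was found in the 250 upstream bases of 2054 of 32851 RefSeq windows (6.25%), and in 2 of the 11 windows of 7 members, this window and 1 of Unc119. TGACGTGG, a core of sites read by ATF6, was searched in the same way without overlap with TAATCC, stood in 0.563% of all windows, and was in 0 of the 11. RefSeq windows were matched for Ctbp2, Bsn, Pclo, Cacna1f, Cacnb2, Unc119 and Slc17a7. The deposited FPKM (fragments scaled by transcript length and by library total) held 1 value for all Ctbp2 transcripts, so RIBEYE and CtBP2 transcripts were not separated in anything below.

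Depth per library was not given in the files, and no interval from counts was made. The libraries' FPKM sums lay between 415014 and 456250 in OIR and between 410599 and 431118 at P30. Atf6 itself was listed at 14.8, 16.1, 14.6, 14.7 and 14.6 FPKM in the 5 WT OIR libraries, and in those of Atf6-/- OIR at 15.6, 13.6, 16.8, 16.3 and 13.6 FPKM (log2 fold change 0.035, adjusted p = 0.827, limma), so its level gives no check of the genotype labels. The predicted gene Gm29733 was listed at 3.12 to 6.89 FPKM in the 5 Atf6-/- libraries and at 0 to 0.21 FPKM in the 5 WT libraries. The 13 rod markers, headed by rhodopsin, summed to between 18278 and 28590 FPKM in all 20 libraries. PBS replicates 4 and 5 stood apart from the other 8 P30 libraries: all 13 rod markers were lower in both than in every other P30 library, against 7.68% of all genes tested, so the members' values with Ceapin-A7 are also given without them, and other P30 results where they moved. Fewer cells of a type and less RNA per cell cannot be told apart in these bulk libraries.

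The 10 genes spanned more than 2 orders of magnitude in level, from the vesicle and adaptor genes at the top to the long scaffold genes at the bottom. Unc119, a lipid-binding chaperone abundant in photoreceptors that carries acylated proteins, was highest at 1525 to 1844 FPKM in WT OIR. Slc17a7, which encodes the vesicular glutamate transporter VGLUT1 that fills the vesicles, followed at 488 to 679.9 FPKM, and Cabp4, the calcium-binding protein that tunes the opening of Cav1.4, at 156 to 196 FPKM. In each of the 4 groups these 3 genes held the first 3 places, and their ranges did not overlap. Cacna2d4, Ctbp2 and Cacna1f came next, at 105 ± 4.13, 96.1 ± 7.31 and 84.2 ± 8.31 FPKM in WT OIR (mean ± SD, n = 5). The ranges of Cacna2d4 and Ctbp2 overlapped in all 4 groups, with Cacna2d4 the higher mean in both OIR groups and Ctbp2 in both P30 groups. Cacnb2 and Rims2 had ranges that overlapped in both OIR groups (46.6 ± 2.15 and 42.0 ± 3.76 FPKM in WT OIR) and did not at P30 (44.5 ± 5.48 and 26.5 ± 1.69 FPKM in PBS). Bsn and Pclo were lowest in every group, and their ranges overlapped in every group.

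**Figure D1:**
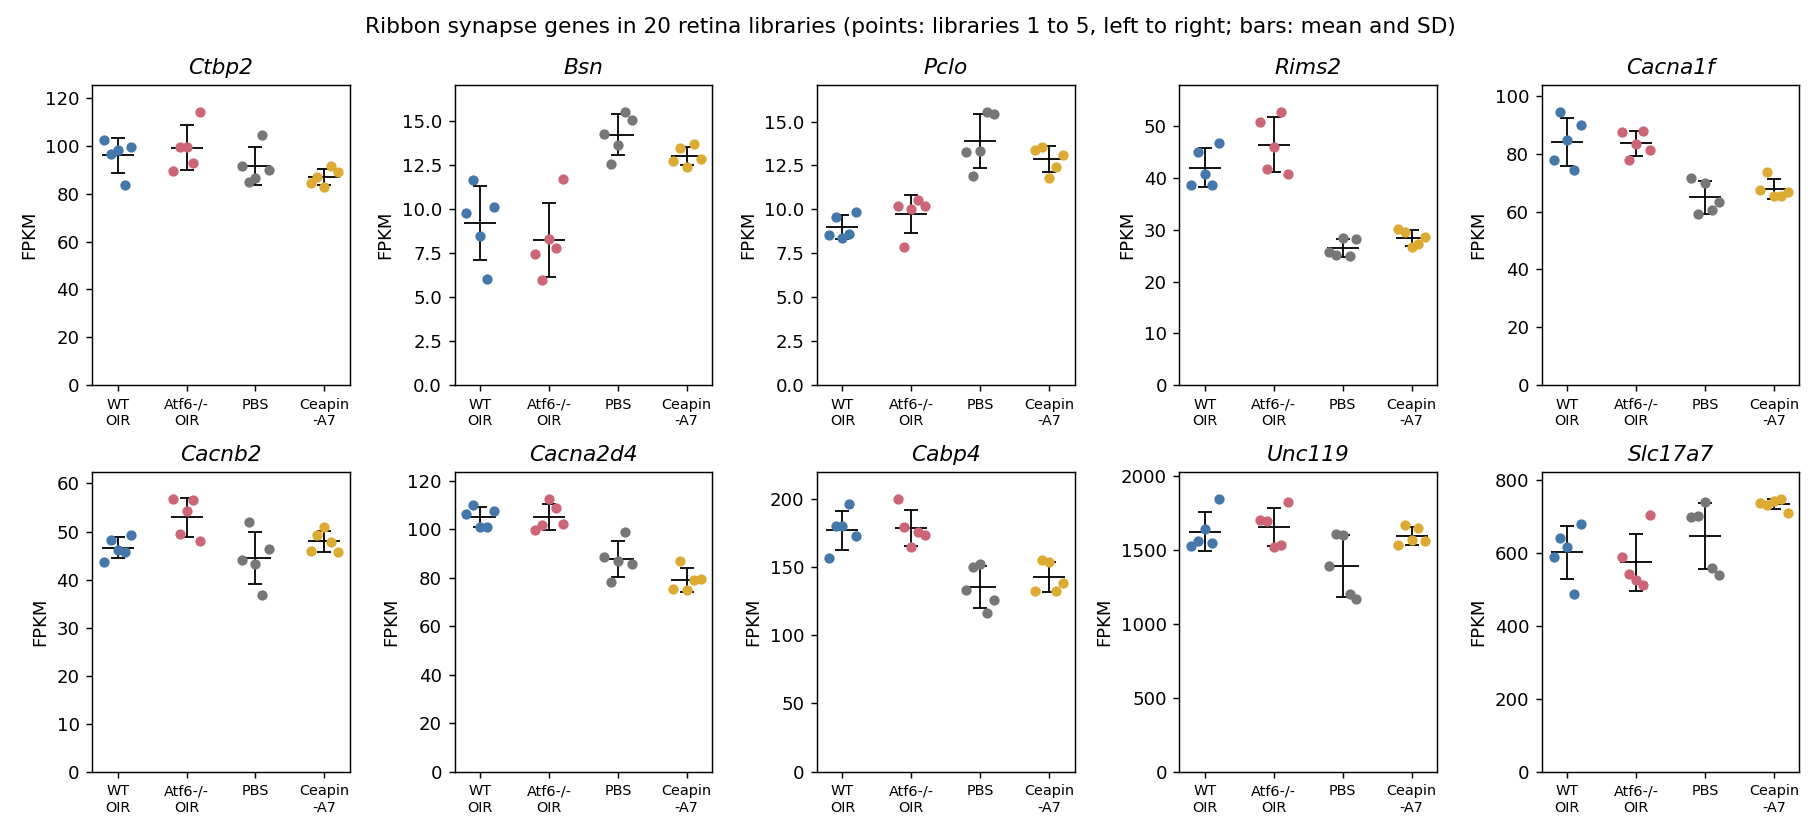
FPKM (vertical axes, from 0, a separate scale for each gene) of the 10 ribbon synapse genes in the 4 groups; each point is 1 library, in replicate order from left to right, and the black bars give the mean and SD of 5 libraries. The groups of each experiment overlap for every gene, whereas Bsn and Pclo lie higher, and Rims2, Cacna1f, Cacna2d4 and Cabp4 lower, in the P30 than in the OIR libraries.

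The first comparison asked whether loss of Atf6 altered these genes in retinas at the peak of neovascular growth. Of the 10 members, 0 had an adjusted p under 0.05 in limma, against 5 of 15704 genes tested (0.0318%), and 1 had an unadjusted p of 0.05 or less, and was higher, against 12.7% of all genes (6.94% higher). The groups overlapped for all 10 members, while 1.8% of genes tested had groups that did not overlap. The median log2 fold change of the members was 0.039 (all genes 0.0028), and the 95% confidence intervals reached from -0.59 for Bsn to 0.35 for Rims2. Of the 2002 genes with an unadjusted p of 0.05 or less, 54.4% were higher, and with FPKM as deposited or scaled to equal sums the share was 30.5% or 31.0%.

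Cacnb2 encodes the β2 subunit, which carries Cav1.4 to the terminal membrane. It was listed at 43.7, 48.2, 46.3, 45.8 and 49.2 FPKM in WT OIR replicates 1 to 5. In Atf6-/- OIR the values were 56.8, 49.5, 54.4, 56.5 and 48.0 FPKM. Of the 5 Atf6-/- libraries, 4 lay above every WT library, and replicate 5 lay inside the WT range. Its mean was 1.15-fold higher in Atf6-/- OIR (95% confidence interval 1.05 to 1.26, log2 fold change 0.20 ± 0.063 SE), with an unadjusted p of 0.00766 and an adjusted p of 0.358 in limma. The two-sided exact permutation p over every division of the 10 libraries was 0.0159, where the smallest possible is 0.00794. With a correction for the GC content of transcripts, the log2 difference was 0.075. When each library was weighted by its spread (limma array weights), it was 0.20 and passed, with an adjusted p of 0.0344, in a fit that called 2769 of 15704 genes.

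The pore-forming subunit gene Cacna1f and the α2δ subunit gene Cacna2d4 differed between the genotypes by less than the spread of the libraries. Cacna1f was listed at 77.7, 94.3, 84.7, 74.3 and 89.9 FPKM in WT OIR and at 87.5, 77.8, 83.3, 87.7 and 81.4 FPKM in Atf6-/- OIR. The log2 fold change was 0.011 (95% confidence interval -0.16 to 0.18), and its sign turned negative under 3 other scalings. Cacna2d4 had 105 ± 4.13 and 105 ± 5.35 FPKM (mean ± SD, n = 5 each) with a log2 fold change of 0.018 (-0.11 to 0.14). For Cabp4 the values were 177 ± 14.3 and 178 ± 13.0 FPKM and 0.031 (-0.12 to 0.18). The intervals of these channel genes include changes of up to 1.14-fold.

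Among the scaffold genes, Bsn was the least even between libraries. Bassoon, its product, is the long active zone protein that anchors the ribbon. It was listed at 9.73, 11.6, 8.46, 5.99 and 10.1 FPKM in WT OIR and at 7.42, 5.95, 8.3, 7.77 and 11.7 FPKM in Atf6-/- OIR. The highest library of each OIR group was 1.94 and 1.96 times the lowest, against 1.23 and 1.1 times in PBS and Ceapin-A7. The log2 fold change was -0.14 (-0.59 to 0.31), and -0.00052 with the GC correction. Its longest transcript is GC-rich (59.8% of 15938 bases).

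Piccolo, from Pclo, is the large partner of bassoon and shares its place at the active zone. It was listed at 8.55, 9.59, 8.36, 8.57 and 9.87 FPKM in WT OIR and at 10.2, 7.85, 10.0, 10.5 and 10.2 FPKM in Atf6-/- OIR. Of the Atf6-/- libraries, 4 lay above and replicate 2 below all WT libraries. The log2 fold change was 0.13 (-0.086 to 0.35, exact permutation p = 0.262). Rims2, which encodes RIM2, a scaffold that ties vesicles to calcium channels, was listed at 38.7, 45.0, 40.8, 38.6 and 46.9 FPKM in WT OIR and at 50.8, 41.8, 46.0, 52.7 and 40.9 FPKM in Atf6-/- OIR. Of these Atf6-/- libraries, 2 lay above all WT libraries and the rest inside their range. The log2 fold change was 0.16 (-0.032 to 0.35, exact permutation p = 0.127, adjusted p = 0.432 in limma).

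For the ribbon gene, the vesicle transporter and the chaperone, the differences were smaller than the spread. Ctbp2 was listed at 102, 96.4, 98.3, 83.6 and 99.6 FPKM in WT OIR and at 89.7, 99.7, 99.6, 93.0 and 114 FPKM in Atf6-/- OIR, a log2 fold change of 0.063 (-0.13 to 0.26). Its paralogue Ctbp1, a transcriptional corepressor gene with no ribbon form, had a log2 fold change of -0.21 (unadjusted p = 0.0635, adjusted p = 0.411, limma). Slc17a7 ran from 488 to 679.9 FPKM in WT OIR and from 513 to 706 FPKM in Atf6-/- OIR, with medians of 618 and 542 FPKM. Its log2 fold change was -0.051 (-0.32 to 0.22), and 0.051 with the GC correction. Unc119 had 1622 ± 132 and 1655 ± 128 FPKM (mean ± SD, n = 5 each) and a log2 fold change of 0.048 (-0.16 to 0.25).

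**Figure D2:**
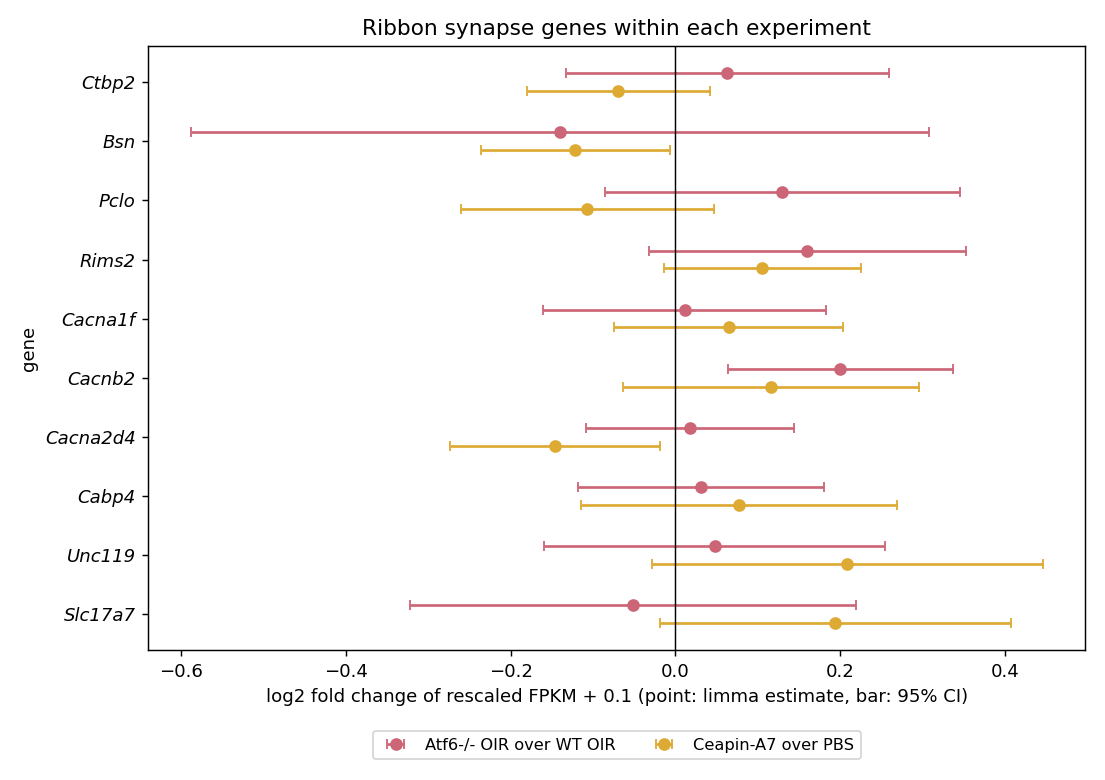
Log2 fold changes (horizontal axis) of the 10 genes with 95% confidence intervals from limma, for Atf6-/- over WT OIR and for Ceapin-A7 over PBS. Intervals that leave 0 are those of Cacnb2 in OIR (0.064 to 0.34) and of Bsn and Cacna2d4 with Ceapin-A7, and none of these passed adjustment over all genes.

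The second comparison asked whether a day of ATF6 inhibition altered the genes in retinas of P30 mice that had not been through OIR. Of the 10 members, 0 had an adjusted p under 0.05 in limma, as for all 15408 genes tested (0%), and 2 had an unadjusted p of 0.05 or less, against 10.4% of all genes. The groups overlapped for all 10 members, and 1.47% of genes tested had groups that did not overlap. The median log2 fold change of the members was 0.071 (all genes 0.00089), and it was -0.0059 without PBS replicates 4 and 5, where 0 members and 769 of 15378 genes reached that unadjusted p. Of the 1595 genes with an unadjusted p of 0.05 or less, 48.7% were higher, and with equal sums the share was 26.8%.

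Cacna2d4 and Bsn were the 2 genes with an unadjusted p of 0.05 or less, and both were lower with Ceapin-A7, as were 5.31% of all genes at that p. Cacna2d4 was listed at 88.6, 78.1, 86.8, 98.8 and 85.7 FPKM in PBS replicates 1 to 5 and at 75.2, 86.9, 74.8, 78.9 and 79.4 FPKM in Ceapin-A7. PBS replicate 2 was the lowest PBS library, and 3 Ceapin-A7 libraries lay above it. The log2 fold change was -0.15 (-0.27 to -0.019, exact permutation p = 0.0397, adjusted p = 0.472 in limma), and -0.11 with an unadjusted limma p of 0.0835 without PBS replicates 4 and 5. Bsn was listed at 14.2, 12.6, 13.6, 15.5 and 15.1 FPKM in PBS and at 12.7, 13.4, 12.4, 13.6 and 12.8 FPKM in Ceapin-A7, where PBS replicates 4 and 5 were the highest of the 10. Its log2 fold change was -0.12 (-0.24 to -0.0068, exact permutation p = 0.0397), and -0.067 with an unadjusted limma p of 0.231 without those libraries.

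Unc119, Slc17a7 and Cabp4 had means that were higher with Ceapin-A7, and were lowest in PBS replicates 4 and 5. Unc119 was listed at 1389, 1605, 1602, 1198 and 1168 FPKM in PBS and at 1533, 1670.3, 1569, 1646 and 1558 FPKM in Ceapin-A7. Slc17a7 was listed at 699, 701, 739.7, 559 and 539.7 FPKM in PBS and at 738, 732, 743, 749 and 712 FPKM in Ceapin-A7. For both genes PBS replicates 4 and 5 were below the other 8 libraries, and at least 1 of PBS replicates 1 to 3 lay inside the Ceapin-A7 range. The log2 fold changes were 0.21 (-0.028 to 0.45) for Unc119 and 0.19 (-0.019 to 0.41) for Slc17a7. Without PBS replicates 4 and 5 they were 0.044 and 0.026. Cabp4 was listed at 133, 149.6, 152, 116 and 126 FPKM in PBS and at 133, 155, 153, 132 and 138 FPKM in Ceapin-A7, and its log2 fold change went from 0.077 to -0.044. The rod marker score, the median of centred log2 values over 13 markers, was -0.40 and -0.34 in PBS replicates 4 and 5 and between -0.035 and 0.17 in the other 8 libraries. All 13 markers stood above 0 FPKM in both groups, summing to 18278 to 27640 FPKM in PBS and 25412 to 27487 FPKM in Ceapin-A7, and their part in the values of these 3 genes was not tested beyond leaving out the libraries.

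**Figure D3:**
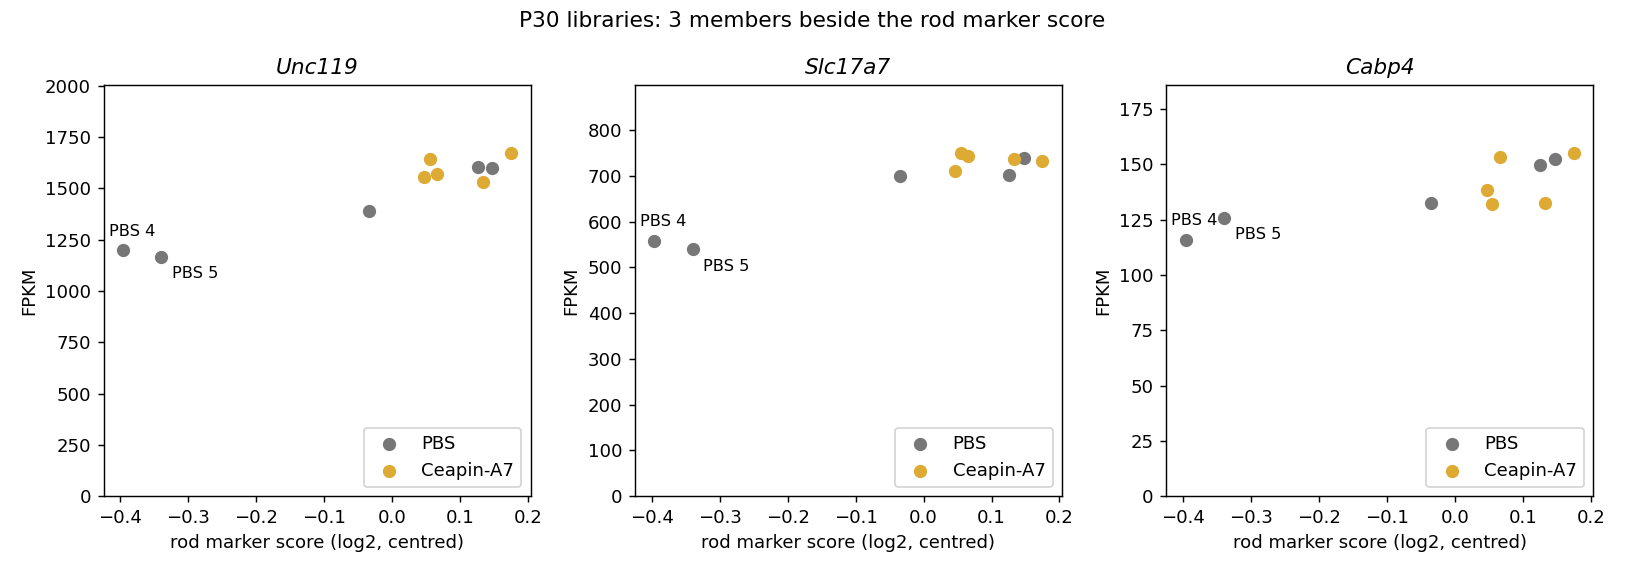
FPKM of Unc119, Slc17a7 and Cabp4 (vertical axes, from 0) against the rod marker score (horizontal axes, log2, centred over the 10 libraries) in the PBS and Ceapin-A7 libraries. PBS replicates 4 and 5 sit at scores of -0.40 and -0.34 with the lowest FPKM of all 3 genes.

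The remaining P30 members moved in mixed directions in those 2 libraries. Pclo was higher in PBS replicates 4 and 5 (15.5 and 15.4 FPKM) than in the other 8 libraries (11.8 to 13.6 FPKM), as was Bsn. Against this, 15.5% of all genes tested were higher, and 7.68% lower, in both libraries than in the other 8. The log2 fold change of Pclo was -0.11, and -0.016 without them. Rims2 was listed at 25.7, 25.1, 28.3, 25.0 and 28.2 FPKM in PBS and at 30.2, 29.6, 26.6, 27.2 and 28.7 FPKM in Ceapin-A7, a log2 fold change of 0.11 (-0.014 to 0.22), and 0.093 without PBS replicates 4 and 5. Cacnb2, Cacna1f and Ctbp2 had log2 fold changes of 0.12 (-0.064 to 0.30), 0.065 (-0.074 to 0.20) and -0.07 (-0.18 to 0.042). Without PBS replicates 4 and 5 they were 0.032, 0.0041 and -0.028.

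The effects of the knockout and of the compound were set against each other in a fit of all 20 libraries. Of the 10 members, 0 had an adjusted p under 0.05 for the difference in limma, against 5 of 15628 genes (0.032%), and 1 had an unadjusted p of 0.05 or less and was above 0, against 9.19% of genes (5.39% above 0). Cacna2d4 was that gene, with a difference of 0.17 on the log2 scale (95% confidence interval 0.0016 to 0.33, unadjusted p = 0.048, adjusted p = 0.54). Pclo had a difference of 0.24 (-0.017 to 0.49) and Slc17a7 of -0.24 (-0.58 to 0.095). Without PBS replicates 4 and 5 no member had an unadjusted p of 0.05 or less, and these differences were 0.13, 0.15 and -0.075. Age, oxygen and the kind of intervention cannot be told apart in this difference.

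Across the experiments, the ribbon synapse genes were not shifted as a block. This comparison was added after the data were seen, and age, OIR, injection and the separate experiments cannot be told apart in it. PBS was set against WT OIR and Ceapin-A7 against Atf6-/- OIR, which share no libraries. In the second of these the genotype and the compound differ as well, and they cannot be told apart from the rest. In the first, 6 of 10 members were called in limma (adjusted p under 0.05), 2 higher and 4 lower, where 55.5% of 15655 genes were called (27.9% higher, 27.7% lower). In the second, 9 were called, 3 higher and 6 lower, where 58.8% of 15616 genes were called (29.3% higher, 29.5% lower). Ranges did not overlap for 6 and 7 members, against 41.3% and 43.6% of genes. The members' share called is thus near that of all genes in the first contrast, and the directions are given as a description.

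Both long scaffold genes were higher at P30. Bsn had 9.17 ± 2.1 FPKM in WT OIR and 14.2 ± 1.16 FPKM in PBS (mean ± SD, n = 5 each) and differed by 0.67 on the log2 scale (adjusted p = 0.00253, limma). Pclo had 8.99 ± 0.689 and 13.9 ± 1.56 FPKM and a log2 fold change of 0.64 (adjusted p = 4.37e-05). Against Atf6-/- OIR, Ceapin-A7 gave 0.69 for Bsn and 0.40 for Pclo, both called. All 5 P30 libraries lay above all 5 OIR libraries for each gene in each contrast. Rims2 went the other way, from 42.0 ± 3.76 FPKM in WT OIR to 26.5 ± 1.69 FPKM in PBS (-0.64 on the log2 scale, adjusted p = 2.17e-05), and -0.70 in the second contrast. The ratio of Pclo to Rims2 FPKM ran from 0.205 to 0.222 in WT OIR, from 0.188 to 0.250 in Atf6-/- OIR, from 0.470 to 0.622 in PBS and from 0.442 to 0.458 in Ceapin-A7, so the OIR and the P30 libraries did not overlap.

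The genes of the channel's pore, its α2δ subunit and its calcium-binding protein were lower at P30. Cacna1f had log2 fold changes of -0.35 and -0.31, Cacna2d4 of -0.24 and -0.41, and Cabp4 of -0.37 and -0.33, all called in both contrasts. Without PBS replicates 4 and 5 the first contrast gave -0.29, -0.27 and -0.24, all called. The ratio of Cacna1f to Cabp4 FPKM stayed between 0.379 and 0.540 in all 20 libraries. For the β2 subunit gene Cacnb2 the values were -0.055 (not called) and -0.14 (called, adjusted p = 0.0442), and the second call was lost under 12 of 24 alternatives. In PBS against WT OIR, the GC correction took Cacnb2 to -0.22 (adjusted p = 0.0391, limma, and 0.00545 with the replicate block), and quantile normalization took Slc17a7 to 0.31 (adjusted p = 0.0499, limma), so that each of these fits called 7 members. Ctbp2 had -0.05 (not called) and -0.19 (called, adjusted p = 0.0322), a call lost under 6 of 24. The single libraries whose removal lost the Cacnb2 call were Atf6-/- OIR replicates 1, 3 and 4 and Ceapin-A7 replicates 1, 2, 4 and 5 (log2 fold changes of -0.16 to -0.12, adjusted p of 0.0503 to 0.106, limma). For Ctbp2 they were Atf6-/- OIR replicate 3 and Ceapin-A7 replicates 1, 2 and 3 (-0.19 to -0.17, adjusted p of 0.0518 to 0.0799, limma). Slc17a7 had 0.12 (not called) and 0.36 (called), and 0.29 in the first contrast without PBS replicates 4 and 5. Unc119 was called in neither (-0.21 and -0.053). Its value in the first contrast ran from -0.27 to -0.032 over the alternatives, which include leaving out PBS replicates 4 and 5. Beside these values, the 13 rod markers had medians of -0.14 and -0.053, the 8 endothelial markers of -1.37 and -1.29, the 5 red blood cell markers of -2.48 and -1.87, the 9 microglia markers of -1.11 and -0.99, the 10 pigment epithelium markers of 1.69 and 0.11 and the 12 lens fibre markers of 2.59 and 5.75 in the 2 contrasts. Of the lens fibre genes, 0 were called in the first contrast and 11 were called higher in the second, where their sums were 5.83 to 9.40 FPKM in Atf6-/- OIR and 91.5 to 9618 FPKM in Ceapin-A7. Of the pigment epithelium genes, 6 and 3 were called higher. Of the 13 rod genes, 1 was called higher and 5 lower in the first contrast, and 4 higher and 4 lower in the second. Without PBS replicates 4 and 5 the rod median in the first contrast was -0.0013, with 5 rod genes called higher and 1 lower. The other medians there were -1.45 (endothelial), -2.61 (red blood cell), -1.07 (microglia), 1.99 (pigment epithelium) and 3.17 (lens fibre). These levels move with the contrasts, and their part in the members' values was not tested.

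**Figure D4:**
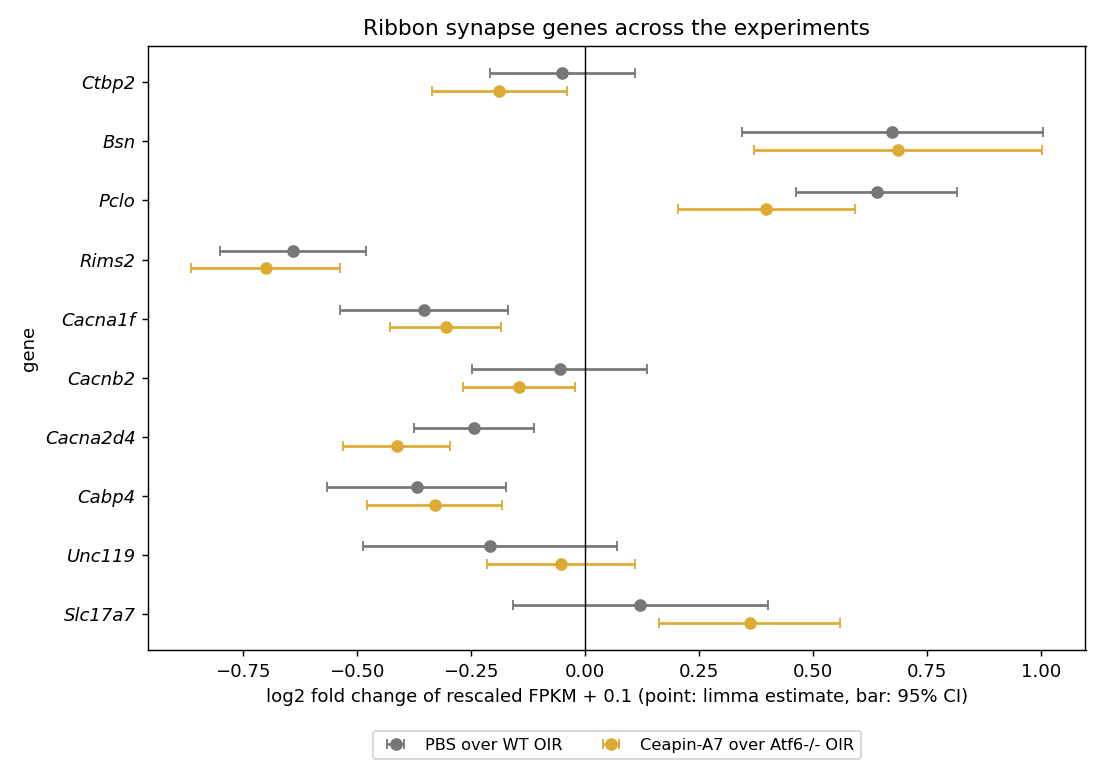
Log2 fold changes (horizontal axis) of the 10 genes with 95% confidence intervals from limma, for PBS over WT OIR and for Ceapin-A7 over Atf6-/- OIR. Bsn and Pclo lie to the right of 0 and Rims2, Cacna1f, Cacna2d4 and Cabp4 to the left of it in both contrasts.

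For each member except Bsn and Pclo, the related genes of its family were listed, some of them also among the terminal genes described further on, and its share of the family's summed FPKM was read in each library. Unc119 made up 98.4% to 99.3% of the UNC119 genes and Slc17a7 94.3% to 97.2% of the 3 vesicular glutamate transporter genes over all 20 libraries. Cacna1f held 82.6% to 84.7% of the L-type pore genes in OIR and 78.3% to 83.4% at P30. Cacna2d4 held 65.7% to 68.8% of the α2δ genes in OIR and 54.4% to 61.7% at P30, while Cacna2d3, another α2δ gene, went from 12.7 ± 0.80 FPKM in WT OIR to 19.6 ± 2.54 FPKM in PBS. Cabp4 held 55.5% to 61.4% of the CaBP genes in OIR and 48.0% to 54.8% at P30. The families were chosen after the data were seen, and genes of a family may share reads that the authors' estimation had to divide.

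Of 16 such shares tested within the experiments (8 families, 2 comparisons), 1 had groups that did not overlap and 0 had a Benjamini-Hochberg adjusted p under 0.05. That share was Ctbp2 among Ctbp1 and Ctbp2. In WT OIR replicates 1 to 5 it was 59.3%, 58.9%, 57.5%, 58.9% and 58.0%, and in Atf6-/- OIR it was 62.1%, 62.9%, 64.7%, 64.2% and 61.6%. Every Atf6-/- library lay above every WT library. The ratio of Ctbp2 to Ctbp1 was 1.21-fold higher in Atf6-/- OIR (log2 difference 0.28, 0.25 to 0.30 when any 1 library was left out). Its exact two-sided permutation p was 0.00794, the smallest that 5 against 5 allows, and 0.127 after adjustment over the 16. This ratio was not read with the GC correction. With Ceapin-A7 the same log2 ratio fell by 0.14 (exact permutation p = 0.0635). The difference lay between -0.18 and -0.075 when any 1 library was left out, the latter without PBS replicate 4, and was -0.054 without PBS replicates 4 and 5. For Cacnb2 among the 4 β subunit genes, the share was 46.1 ± 2.50% in WT OIR and 53.3 ± 4.30% in Atf6-/- OIR (exact permutation p = 0.0238, adjusted over the 16 p = 0.19), with Cacnb3 at 36.3 ± 3.89 and 29.0 ± 4.91 FPKM.

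**Figure D5:**
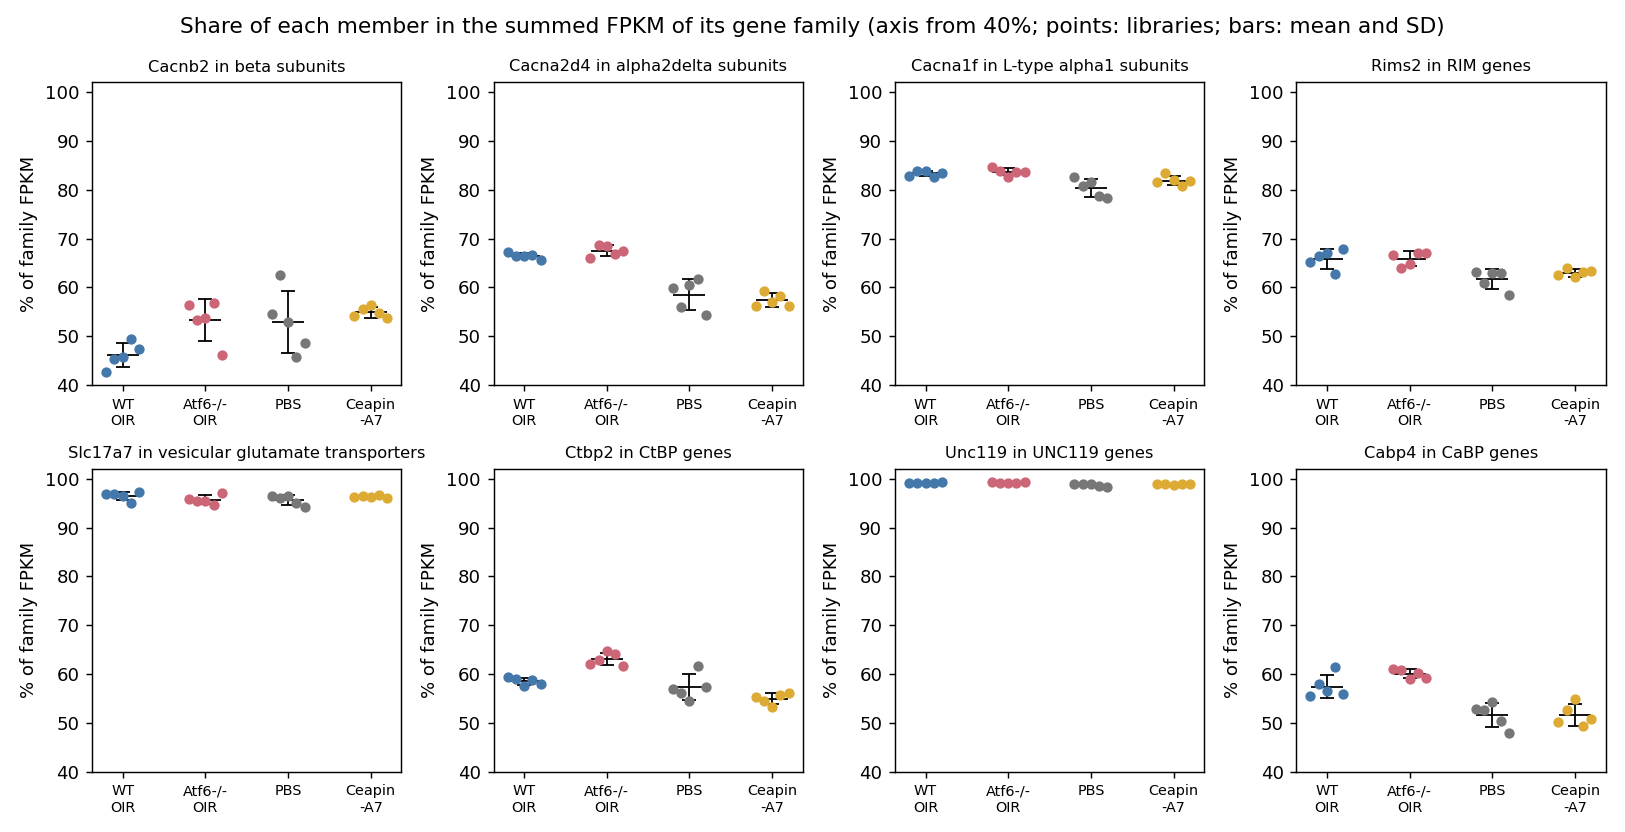
Share of each member in the summed FPKM of its gene family (vertical axes in percent, starting at 40%) in the 4 groups; points are libraries and bars the mean and SD of 5. Ctbp2 shows Atf6-/- libraries (61.6% to 64.7%) all above the WT OIR libraries (57.5% to 59.3%), and Cacna2d4 and Cabp4 lie lower at P30 than in OIR.

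Beside the members, a list of 42 other genes was read, chosen as terminal genes. In whole retina their transcripts can also come from cells other than photoreceptors. In OIR, 0 of 42 passed adjustment, 4 had an unadjusted limma p of 0.05 or less and were higher (Sv2b, Ppef2, Atp2b1 and Rims1) and 2 were lower (Cabp1 and Cacnb3), with a median of 0.03. Sv2b, a synaptic vesicle protein gene, had 67.9 ± 3.42 FPKM in WT OIR and 77.6 ± 6.8 FPKM in Atf6-/- OIR (log2 fold change 0.21, adjusted p = 0.358, limma), with no overlap. Cabp1, a relative of Cabp4, had 68.9 ± 6.58 and 56.4 ± 3.78 FPKM (-0.27, adjusted p = 0.36). With Ceapin-A7, 0 of 42 passed, and the genes whose unadjusted p was 0.05 or less were 0 higher and 3 lower, Elfn1 (-0.34), Unc13a (-0.14) and Dlg4 (-0.11), with a median of -0.04. Without PBS replicates 4 and 5, 1 was higher (Cacnb3, 0.24) and 0 were lower, and Elfn1 was at -0.16. Across the experiments, 12 of the 42 were called higher and 12 lower in both contrasts (57.1%), against 2 and 4 of the 10 members (60%) and 46.2% of 15496 genes tested in both. Of 12 genes of the receiving side, in ON bipolar cells, 0 passed in either experiment, and their medians were -0.06 in OIR and 0.0018 with Ceapin-A7 (-0.013 without PBS replicates 4 and 5). At an unadjusted limma p of 0.05 or less, 1 was higher and 2 were lower in OIR, against 12.7% of all genes. With Ceapin-A7, 1 was higher and 0 were lower, against 10.4% of all genes, and 0 remained without PBS replicates 4 and 5.

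Within groups, the members did not vary as 1 unit. Over the 20 libraries, with each gene centred on its group means, the correlation of a member with the mean of the other 9 ran from 0.15 for Cabp4 and 0.19 for Ctbp2 to 0.69 for Slc17a7 and 0.80 for Cacna1f. The SD within groups was 0.077 on the log2 scale for Cacna2d4, the steadiest, and 0.25 for Bsn, the least steady. The 3 other genes most like the mean profile were Gramd1b (r = 0.92, rho = 0.92), Cep164 (r = 0.90, rho = 0.87) and Tnfaip3 (r = 0.90, rho = 0.95) over the same 20 libraries, which share depth and scaling with the members, and these values are a description.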

How the data were processed

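Stranded mRNA libraries of whole retina were sequenced as 100 bp pairs. The authors deposited FPKM per gene, rounded to 2 decimals, and GEO's processing notes name HISAT2 2.0.4, RSEM 1.2.18, DESeq2 1.4.5 and GRCm39. Such values are not counts and carry an estimated division of shared reads, so no count test was run, and the authors' fold changes and p-values were not used. Depth per library was not recovered from the rounded values, and p-values measure the spread between 5 libraries a group. The values were scaled by a median-of-ratios factor per library (0.946 to 1.04 in OIR, 0.980 to 1.02 at P30), and log2(FPKM + 0.1) of genes with a mean FPKM above 0.1 was tested with limma 3.58.1 (R 4.3.3, trend) with Benjamini-Hochberg adjustment over all genes tested. A fold change on this scale understates low genes. On data simulated with 200 changed genes the fit was tested first. Exact two-sided permutation tests ran over all arrangements (Python 3.11.15). Alternatives changed the pseudocount, filter, scaling, weights, GC correction, replicate block and libraries. GC content and length came from GENCODE M21 by NCBI gene number, matched for 97.5% of genes tested in OIR. Genes named outside the members were taken from the 2 with the smallest p per list and experiment, any with an adjusted p under 0.05, and the 3 most like the members, with at least 1 FPKM. Also named were terminal genes with an unadjusted limma p of 0.05 or less, some genes of the members' families, and Atf6 and Gm29733 beside the genotype. The members and lists were chosen with earlier results of these data known.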

Additional observations from a re-analysis of the deposited data

Results flagged for a closer look

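Each of the 40 sets of 5 libraries (10 genes, 4 groups) was checked for a library far from the other 4, and 2 had one, where chance gives about 1 in 20. Pclo was listed at 7.85 FPKM in Atf6-/- OIR replicate 2, with the other 4 libraries at 10.0 to 10.5 FPKM, a gap of 0.799 of the group's range. Cacna1f was listed at 73.8 FPKM in Ceapin-A7 replicate 2, with the other 4 at 65.3 to 67.3 FPKM, a gap of 0.76 of the range. No member had a difference between the 2 experiments' effects that passed adjustment in limma.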

How the results depend on the processing

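No member passed adjustment in OIR or with Ceapin-A7 under any alternative except array weights, which called Cacnb2 in OIR (1 member) and moved the OIR count from 5 to 2769 genes. That count was 8 with the GC correction, 11 in a fit of all 20 libraries and 5 to 9 when any 1 library was left out (9 without Atf6-/- OIR replicate 5). The Ceapin-A7 count was 1 in the fit of all libraries and 0 with any 1 left out. The members' median ran from 0.0041 to 0.065 in OIR and from 0.026 to 0.10 with Ceapin-A7 when any 1 library was left out. In OIR it was -0.0030 with quantile normalization, -0.0036 with array weights, 0.015 with equal sums, 0.022 as deposited and 0.069 with the GC correction. With Ceapin-A7 it was 0.032 with equal sums and 0.038 with array weights. It was -0.0059 with Ceapin-A7 without PBS replicates 4 and 5, an alternative chosen after the data were seen. For the difference of the effects 0 members were called under any alternative, and 39.8% of the genes at an unadjusted p of 0.05 or less were higher with FPKM as deposited, against 58.7%. Across the experiments, 6 members (PBS against WT OIR) and 7 to 9 (Ceapin-A7 against Atf6-/- OIR) were called when any 1 library was left out. Replicate numbers did not pair the libraries, since same-numbered libraries correlated at -0.39 to 0.31 in OIR and -0.38 to 0.45 at P30, and 1 of 5 in each was nearest to its own number. With the replicate block, OIR had 5 genes and 0 members called with a member median of 0.039, Ceapin-A7 had 0 and 0 with 0.071, and the experiments' contrasts had 6 and 8 members called.

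In OIR, log2 fold changes changed sign for Ctbp2 (array weights -0.017, 1 library left out -0.0084 to 0.10), Cacna1f (as deposited -0.0065, equal sums -0.013, quantile normalization -0.0066, array weights -0.047, 1 left out -0.046 to 0.055), Cacna2d4 (-0.00017, -0.0066 and -0.0020 under the same 3 scalings, 1 left out -0.011 to 0.038), Cabp4 (quantile -0.0041, 1 left out -0.012 to 0.065), Unc119 (quantile -0.064, array weights -0.045, 1 left out -0.0080 to 0.10) and Slc17a7 (GC correction, without or with the block, 0.051, 1 left out -0.15 to 0.0017). Without PBS replicates 4 and 5 the sign turned for Cabp4 with Ceapin-A7 (-0.044), for Cacnb2 in PBS against WT OIR (0.034, 1 left out -0.12 to 0.022) and in the difference for Cacna1f (0.0096), Cabp4 (0.078, 1 left out -0.092 to 0.018) and Unc119 (0.0064). In the difference, Bsn ran from -0.17 to 0.10 with 1 left out. The GC correction, without or with the block, gave 0.056 for Ctbp2 in PBS against WT OIR and 0.019 for Unc119 in Ceapin-A7 against Atf6-/- OIR, where array weights gave 0.0064. None of these turned values was called, and the cause was not tested. Depth behind single values is unknown, and 5 libraries a group leave intervals of up to 0.59 on the log2 scale for Bsn.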

Other observations

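Marker genes of the other cells a retina sample can hold were read beside the ribbon synapse genes, in 11 lists, and none of these genes passed adjustment over all genes in limma in either experiment. In OIR, 4 of 13 rod genes had an unadjusted limma p of 0.05 or less and were higher in Atf6-/- retinas, led by the transducin subunit gene Gnb1 (log2 fold change 0.20) and the phosphodiesterase gene Pde6b (0.21), and 0 were lower. Of all genes tested in OIR, 12.7% had such a p (6.94% higher). Of 10 cone genes, 2 were higher at that p, Opn1mw, the middle-wavelength opsin (0.27), and Gnat2, the cone transducin gene (0.27), and 0 were lower. The widest differences were in tissue next to the retina. Of 10 pigment epithelium genes, 6 were higher and 0 lower at that p, and Rgr, a retinal-binding opsin of that tissue, had a log2 fold change of 1.95 ± 0.60 (SE, n = 5 each), with 11.5 ± 6.84 FPKM (mean ± SD) in Atf6-/- OIR. Of 11 lens fibre genes tested, 9 were lower and 0 higher. The summed level of all 12 in the list ran from 5.83 to 9.40 FPKM in Atf6-/- and from 9.24 to 529 FPKM in WT libraries. Endothelial genes had 2 lower of 8, led by Emcn (-0.34) and Erg (-0.45), and the bipolar, amacrine, ganglion cell, Müller glia, microglia and red blood cell lists had at most 1 gene in a direction.

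With Ceapin-A7, 6 of 10 cone genes were higher at an unadjusted limma p of 0.05 or less and 0 lower, led by cone arrestin, Arr3 (0.17), and Gngt2 (0.38), while 1 of 13 rod genes was higher, Sag (0.38). Of all 15408 genes tested, 10.4% had such a p, 777 of them higher and 818 (5.31% of all) lower. The Müller glia list had 2 higher of 8, with Glul, the glutamine synthetase gene, at 925 ± 60.9 FPKM in Ceapin-A7 and 579 ± 306 FPKM in PBS (mean ± SD, n = 5 each). In PBS replicates 4 and 5, 6 of the cone genes and 3 of the Müller glia genes were below all other P30 libraries. Without them, 2 cone genes (Arr3 at 0.22 and Gngt2 at 0.18), 0 rod genes and 0 Müller glia genes were higher at that p, against 2.61% of all genes, and Glul was at 0.28. The pigment epithelium list had 2 higher and 2 lower of 10 (1 and 6 without those libraries), and the lens fibre list 0 of 12 in either direction, with sums from 8.60 to 9618 FPKM between single P30 libraries. The amacrine, ganglion cell, endothelial and red blood cell lists had 0 genes at that p, and the bipolar and microglia lists had at most 1 in a direction. Without those libraries these lists had at most 2 in a direction. The part of these cells in the members' values was not tested.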
